A study of Mus musculus with 76 samples.

Results

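The 7 genes described here, Gzma, Gzmb, Prf1, Nkg7, Ctsw, Fasl and Ccl5, encode proteins of the killing machinery of cytotoxic lymphocytes and a chemokine that these cells make. They were taken by name from the 37980 genes of the expression table, all 7 were found, and all 7 passed the filter of at least 1 FPKM in at least 2 libraries. RNA was measured in 75 distinct libraries, each from 1000 sorted mouse cells, in 24 groups of 2 to 4 libraries. All mice were C57BL/6. Natural cells of 15 groups were HSC (hematopoietic stem cells), MPP (multipotent progenitors), pro/pre-B cells, and mature T, B and myeloid cells of the bone marrow; early T progenitors (ETP) of bone marrow (BM) and thymus (Thy); and thymocytes of the double negative phases DN1, DN2, DN3 and DN4, of the double positive phase (DP), and of the CD4 and CD8 single positive phases (SP). The induced counterparts, 9 groups that start at BM ETP and end at CD8 SP, were sorted from bone marrow or thymus of sublethally irradiated recipients of pro/pre-B cells that had been infected with a Hoxb5 virus in culture, sorted and transplanted. Hoxb5 is a homeobox transcription factor, and the study asked whether it turns B cells into T lymphocytes. Natural cells had neither virus nor transplantation in the labels, so that source, virus, irradiation and transplantation cannot be told apart. The labels name no promoter of the virus and leave unsaid if the libraries within a group stem from separate animals, so p-values measure the spread between libraries, which may be technical. Recipients were irradiated below the lethal dose and keep cells of their own, and the labels do not say how transduced cells were told from them.

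Cytotoxic lymphocytes kill by releasing granules onto a target cell. Perforin (Prf1) forms pores in the target membrane, and granzymes A and B (Gzma, Gzmb), serine proteases, enter and cleave proteins in the target, with granzyme B activating caspases. Nkg7 is a granule membrane protein that takes part in granule release, and Ctsw, cathepsin W, is a cysteine protease of cytotoxic cells. Fas ligand (Fasl) kills through the death receptor Fas, and Ccl5 is a chemokine of activated T cells and natural killer (NK) cells. Mature NK cells and effector CD8 T cells are the best known sources of all of these, and most thymocytes have not yet acquired the program.

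Positions are from GENCODE vM21 on GRCm38, whereas the deposited values were made on NCBIM37. Gzma (ENSMUSG00000023132) has 6 exons on the minus strand of chromosome 13 from 113093825 to 113100981. Gzmb (ENSMUSG00000015437) has 5 exons on the minus strand of chromosome 14 from 56258838 to 56262260. Prf1 (ENSMUSG00000037202) lies on chromosome 10 from 61297833 to 61304680 and Nkg7 (ENSMUSG00000004612) on chromosome 7 from 43437073 to 43438249, both on the plus strand. Ccl5 (ENSMUSG00000035042) on chromosome 11 from 83525778 to 83530518, Fasl (ENSMUSG00000000817) on chromosome 1 from 161780689 to 161788495 and Ctsw (ENSMUSG00000024910) on chromosome 19 from 5465043 to 5468507 are on the minus strand. The 7 genes thus sit on 7 chromosomes. None of them shared a stretch of 50 bases, read in the same direction, with a transcript of another gene. Same-direction copies in the annotated transcripts could thus not split their reads at that length. Reverse-complement copies were not searched.

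The granzymes were the pair with the lowest correlation across the groups, so their start regions are shown, 250 bases before to 50 bases after the start site, from RefSeq on GRCm38.p6, 5′ to 3′ on the strand of the gene. Nkg7, which reached 1 FPKM in the most libraries, is shown for comparison. Capitals mark the letters TGTGGT or ACCACA, the core bound by RUNX factors, and TCACACCT or AGGTGTGA, a T-box core.
Gzma, chr13:113100932-113101231, minus strand: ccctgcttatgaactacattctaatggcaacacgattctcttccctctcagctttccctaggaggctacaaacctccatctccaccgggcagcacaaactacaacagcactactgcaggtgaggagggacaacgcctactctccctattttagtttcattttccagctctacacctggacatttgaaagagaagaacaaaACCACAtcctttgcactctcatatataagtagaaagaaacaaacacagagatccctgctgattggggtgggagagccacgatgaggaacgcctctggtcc
Gzmb, chr14:56262285-56262584, minus strand: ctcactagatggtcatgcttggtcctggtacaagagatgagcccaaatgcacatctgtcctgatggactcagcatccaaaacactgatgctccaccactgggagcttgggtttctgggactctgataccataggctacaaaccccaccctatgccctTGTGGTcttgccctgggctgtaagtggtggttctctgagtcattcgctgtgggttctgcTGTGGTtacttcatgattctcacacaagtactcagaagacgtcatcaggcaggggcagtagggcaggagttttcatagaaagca
Nkg7, chr7:43436888-43437187, plus strand: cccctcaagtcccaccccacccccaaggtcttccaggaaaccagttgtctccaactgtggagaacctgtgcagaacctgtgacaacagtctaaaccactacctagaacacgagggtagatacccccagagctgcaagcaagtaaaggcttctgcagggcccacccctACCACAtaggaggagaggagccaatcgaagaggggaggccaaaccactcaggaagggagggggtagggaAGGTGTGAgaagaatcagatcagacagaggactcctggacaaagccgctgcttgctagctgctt
From the RefSeq start site, the RUNX letters began at -50 in Gzma, at -93 and -34 in Gzmb and at -83 in Nkg7, and the T-box letters at -14 in Nkg7. These start sites differ from the GENCODE positions above for Gzmb and Nkg7. The Gzmb region shown lies wholly before the GENCODE start at 56262260. In Nkg7 the GENCODE start at 43437073 comes before the RefSeq one, so the T-box letters lie inside the GENCODE gene. Start regions of 5 of the 7 genes were matched in the sequence table. The RUNX letters stood in 4 of the 5 (Prf1 at -130; Fasl had none in this window), against 16.8% of 32851 start regions of the same length, and the T-box letters in 1.28% of them. The letters GGAAGT or ACTTCC, the core bound by ETS factors, stood in Prf1 at -198 and -108 and in Fasl at -26, against 23.8% of all. The motifs were searched on both strands and do not overlap in these regions. These matches describe letters and not bound sites.

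Levels are FPKM, fragment counts scaled by transcript length and library size, which can be compared between genes because they are divided by length. Totals per library ran from 667700 to 2004000 FPKM, and 9828 to 12202 genes reached 1 FPKM. Read counts were not used here, so no counting interval is given. Vamp7, a gene of vesicle fusion used widely by cells, is listed at 0 in every library, so a 0 is given below only as a listing and not as absence. Differences between groups are on the log2(FPKM + 1) scale with their standard error (SE), which understates changes of low genes. They were tested with limma, adjusted over 17416 genes and called at an adjusted p of 0.05, and no difference between a pair of groups is printed where one of them is listed at 0 in every library. In libraries of sorted cells, fewer cells of a type and less RNA per cell cannot be told apart. The labels were checked against marker lists. Natural DN1 libraries held all 10 measured NK markers, summing to 1798 to 2109 FPKM (Klrd1 at 863 ± 56.2, Ncr1 at 108 ± 17.5; SD, n = 3), and Trac, the T cell receptor alpha constant gene, at 476 ± 38.2. Replicates 1 and 2 also listed the immunoglobulin light chain gene Igkc at 1741 and 3446 FPKM, against 89.5 in replicate 3. Natural BM ETP libraries held the neutrophil granule genes Elane at 7038 ± 866 and Mpo at 5666 ± 672 (SD, n = 3), and induced BM ETP libraries the pre-B gene Igll1 at 3571 and 4261.

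Gzma had group means of 198 to 1968 FPKM in every DN1 to CD8 SP group of both sources other than natural CD4 SP. Natural DN3 libraries had 2315 and 1562 FPKM, natural DN4 libraries 2072, 2002 and 1829, and natural DN2 libraries 1027, 763 and 1665. Libraries of DP cells fell lower, at 161, 202, 239.8 and 191 for natural and 241, 259 and 209 for induced cells, ranges that overlap. All libraries of HSC, MPP, pro/pre-B cells, mature B cells and both BM ETP groups are listed at 0. Mature T cells of the marrow had 7.15, 30.3 and 105 FPKM, and mature myeloid cells 20.8 and 19.8. Of 18 groups with a mean of at least 1 FPKM, the highest by mean were, in order, DN4, DN3, induced DN1, induced DN4, DN2, DN1, induced CD8 SP, CD8 SP and induced DN3, and the library ranges of neighbours among these overlapped. In all, 12 of 17 neighbouring pairs in the order overlapped. The first gap came below induced DN3, and the others below induced DN2, induced CD4 SP, natural DP and mature myeloid cells.

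Gzmb, its partner protease, had a different and narrower distribution. The 3 natural DN1 libraries had 863, 903 and 903 FPKM, and the next library in rank was a natural CD4 SP one at 119. Natural CD4 SP cells had 39.5, 47.1 and 119, induced Thy ETP 41.1, 44.5 and 26.0, natural CD8 SP 18.3, 10.1 and 12.6, and natural BM ETP 14.4, 2.87 and 15.3. All libraries of HSC, MPP, pro/pre-B and mature B cells and of 4 induced groups (BM ETP, DP, CD4 SP and CD8 SP) are listed at 0. Thus the DN2, DN3 and DN4 groups that carried Gzma at means of 417 to 1968 FPKM had 0 to 2.28 FPKM of Gzmb in any library, natural or induced. Across the 24 group means the correlation of the granzymes was 0.02 (Pearson, log2 scale), given as a description of groups that share a platform.

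Prf1, the pore former, was low in most groups. Natural DN1 libraries had 22.2, 16.9 and 26.4 FPKM and mature T cells 10.7, 20.3 and 10.5, ranges that overlap. Induced DN1 libraries followed with 4.68, 4.52, 4.32 and 3.51. DN3 cells of both sources, and natural DN2 cells, are listed at 0 for Prf1 in every library, while their Gzma stood at 610.5 or more. A single natural DP library had 7.58, where the others had 0, 0 and 0.264. Of the 7 genes Prf1 reached 1 FPKM in the fewest libraries, 16 of 75.

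Nkg7 reached 1 FPKM in 64 of 75 libraries, the most of the 7. Its level fell along the natural double negative phases, from 1710, 1531 and 1361 FPKM in DN1 to 317, 171 and 144 in DN2, 79.8 and 84.4 in DN3, and 24.5, 30.9 and 49.6 in DN4. The library ranges of these 4 phases do not overlap, and a single natural DP library exceeded 1.03, at 11.6. Induced cells had 384, 324, 480.3 and 385 in DN1, 333 and 328 in DN2, 147, 170.0 and 200.2 in DN3, and 37.8, 46.0, 47.6 and 35.3 in DN4, and 0 in all 3 DP libraries. Natural MPP libraries, at 48.4, 63.7, 79.5 and 73.9, lay above HSC at 20.0, 24.0, 2.16 and 13.0 with no overlap. Mature T cells had 648, 650.4 and 786, and mature B cells are listed at 0.

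Ctsw, the cathepsin, ran highest in natural DN1 libraries at 559.8, 574 and 511 FPKM, then in mature T cells at 280.5, 231 and 279. Induced DN1 cells had 225, 139, 212 and 203. From DN2 to DN4 all libraries of both sources lay between 7.08 and 35.8, and DP libraries between 0 and 4.20. Stem and progenitor cells held low Ctsw, 6.19 to 13.7 in HSC and 4.24 to 16.4 in MPP, while pro/pre-B cells, the cells that were transduced, are listed at 0.

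The ligands, the chemokine Ccl5 and the death ligand Fasl, led in the same groups. Ccl5 stood at 2389, 2294 and 2053 FPKM in natural DN1 libraries, 717, 1055 and 1380 in mature T cells and 123, 172 and 237 in natural CD8 SP cells, and these 3 groups do not overlap. Natural CD4 SP cells (148, 47.2 and 41.7) and induced DN1 cells (115, 85.1, 109 and 39.3) came next and overlap each other, and the CD4 SP range reaches into that of CD8 SP. Every other library, of the remaining 19 groups, had 23.4 FPKM or less. Fasl had lower levels, with 81.7, 77.7 and 70.9 in natural DN1 and 16.7, 26.3 and 16.0 in mature T cells. Natural CD4 SP cells had 4.27, 19.2 and 9.61 of Fasl and overlap mature T cells. Fasl is listed at 0 in both DP groups, in natural DN4 and in both induced SP groups, and likewise in HSC, MPP, pro/pre-B, mature B and both BM ETP groups.

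**Figure D1:**
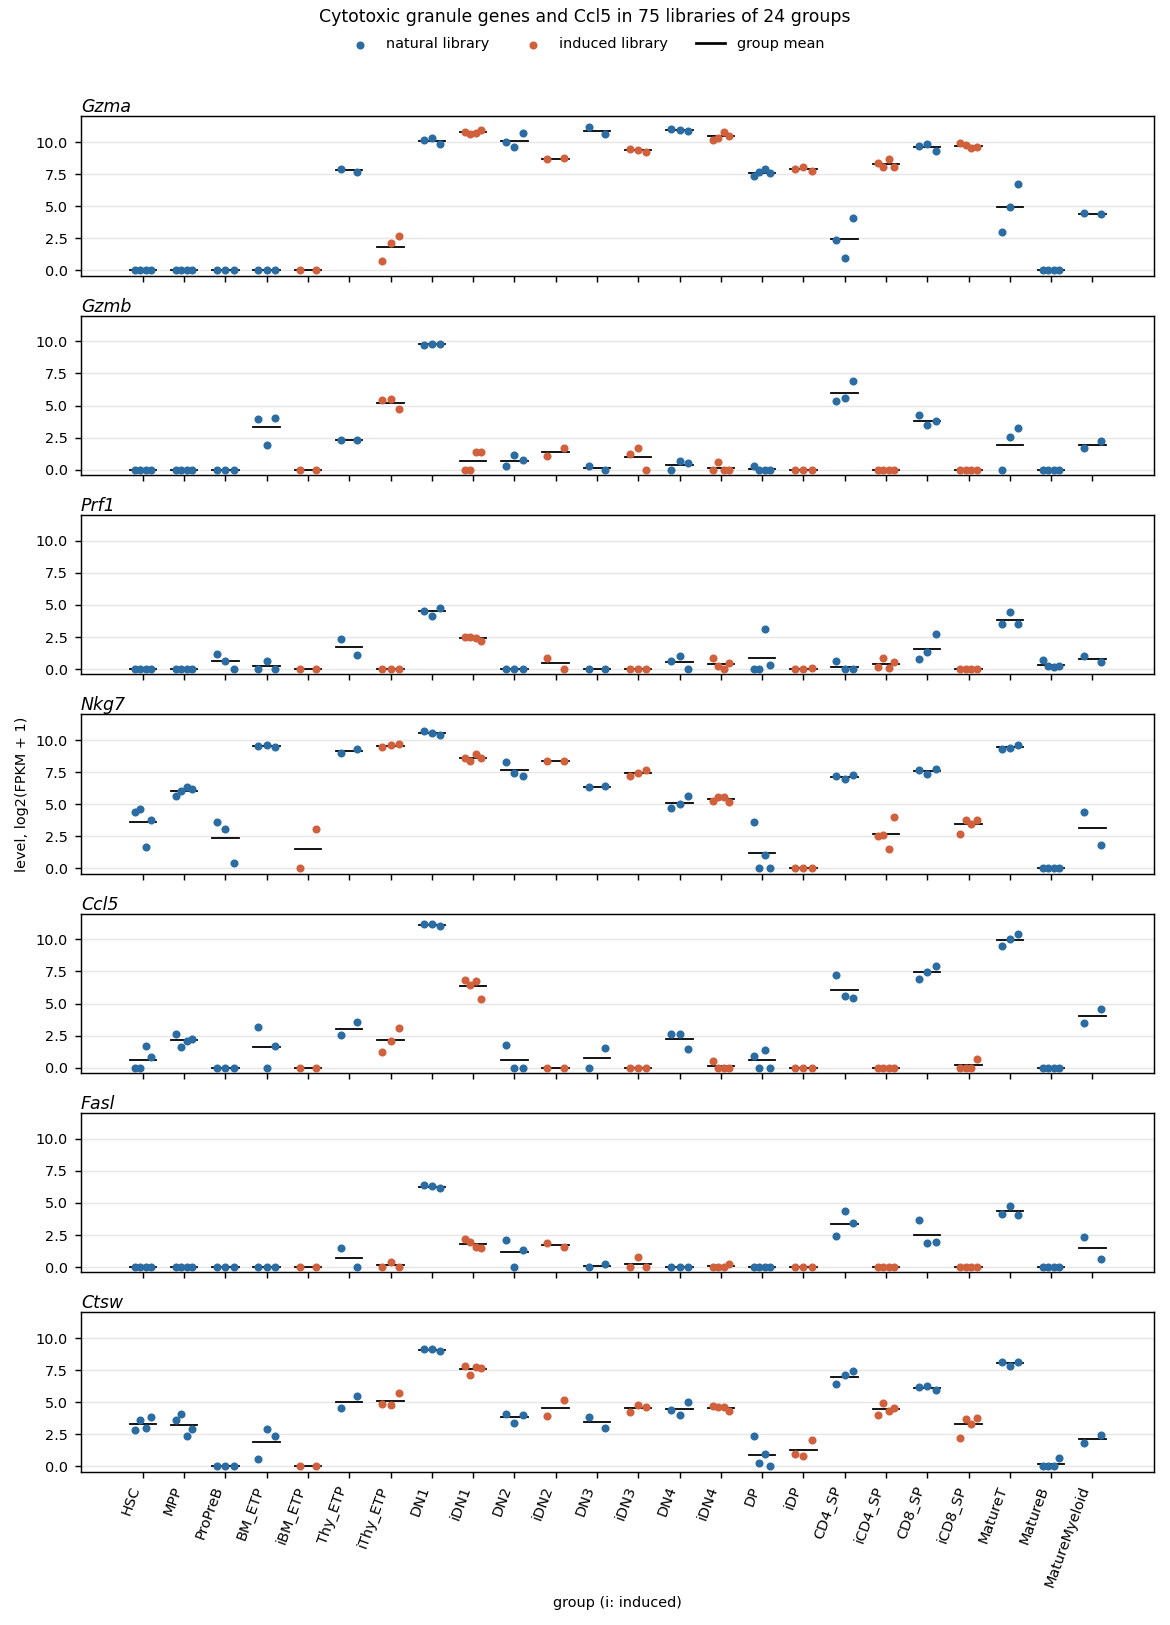
Level of each of the 7 genes, log2(FPKM + 1), in the 75 libraries by group; points are libraries (blue natural, orange induced) and bars are group means. Gzma is high from DN1 to CD8 SP in both sources except in natural CD4 SP, while Gzmb, Ccl5 and Fasl peak in the 3 natural DN1 libraries. Prf1 has its highest mean in natural DN1 too, where its range overlaps that of mature T cells.

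Within the summed level of the 7 genes, Gzma made up 95.7% to 97.6% in natural DN4 libraries and 94.8% to 96.3% in induced DN4 libraries. In DN1 its share was 15.5% to 18.9% in natural and 67.6% to 76.0% in induced cells, which do not overlap. In CD4 SP the share was 0.240% to 3.18% in natural and 87.2% to 95.1% in induced cells. The members other than Gzma resembled each other more across group means, with Pearson coefficients from 0.47 (Prf1 and Nkg7) to 0.91 (Ccl5 and Fasl), whereas those of Gzma with the other 6 ran from 0.02 (Gzmb) to 0.46 (Ctsw).

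The first comparison was of induced with natural BM ETP. In this pair Nkg7 was 0 and 7.37 FPKM in the 2 induced libraries against 725, 781 and 719 in the natural ones, a difference of -8.00 ± 0.72 (SE; adjusted p = 5.94e-14). Gzmb (natural 14.4, 2.87 and 15.3), Ccl5 (natural 8.25, 0 and 2.28) and Ctsw (natural 0.482, 6.45 and 4.16) are listed at 0 in both induced libraries and were called lower, with adjusted p of 2.54e-07, 0.0235 and 0.00182. So 4 of the 7 members were lower, where 16.8% of all genes tested were, and 3 of the 7 had ranges that do not overlap, where 52.6% of all genes had. In either direction 31.1% of genes were called. The neutrophil and myeloid marker list, led by Elane, summed to 29716 to 43318 FPKM in natural and 1222 to 1762 in induced BM ETP libraries, with 6 of 9 tested markers lower, and the B cell list to 75.3 to 152 and 11322 to 12070, with 9 of 9 higher. Their part in the Nkg7 difference was not tested. With only these 5 libraries in the fit, Nkg7 was the 1 member called (Gzmb, Ccl5 and Ctsw had adjusted p of 0.0721, 0.399 and 0.212). The call of Ccl5 was also lost without natural replicate 1 (0.321) or 3 (0.0538) or induced replicate 1 (0.106) or 2 (0.105). Of the granule packing and release list, 10 of 12 tested genes were also lower here, among them Unc13d, which primes granules for fusion, by -2.38 ± 0.29 (adjusted p = 6.36e-10), and Rab27a, which docks them, by -1.94 ± 0.36 (1.33e-05).

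In the thymic early progenitors the granzymes went opposite ways. Gzma was 0.673, 3.39 and 5.37 FPKM in induced against 241 and 203 in natural Thy ETP libraries, a difference of -5.95 ± 0.49 (adjusted p = 4.01e-14), and Gzmb was 41.1, 44.5 and 26.0 against 4.10 and 4.01, a difference of 2.88 ± 0.50 (3.51e-05). Neither pair of ranges overlaps. Prf1 is listed at 0 in the 3 induced libraries against 4.10 and 1.17 and was called lower (0.00984). Nkg7 had 697, 783 and 805 in induced against 503 and 618 in natural cells and was not called (0.45 ± 0.72, adjusted p = 0.937). The count was 1 member higher and 2 lower of 7, where 4.49% of all genes were higher and 3.78% lower. In a fit of these 5 libraries alone none of the 3 was called (adjusted p = 0.165 for Gzma, 0.175 for Gzmb and 0.42 for Prf1). Prf1 was not called without natural replicate 1 (0.354), and Gzmb was not called at a pseudocount of 0.1 FPKM (0.0741). Beside them, Cd3d, a T cell receptor subunit, was lower by -4.64 ± 0.23 (1.77e-23). In the list named granzyme inhibitors 2 serpin genes were higher, Serpinb9, which blocks granzyme B, by 1.99 ± 0.59 (0.0228) and Serpina3g by 2.44 ± 0.63 (0.00758). The basophil protease gene Mcpt8 had 15.1 to 38.8 FPKM in induced and 0 to 1.31 in natural libraries, and 2 of 5 tested mast cell and basophil markers and 3 of 9 neutrophil and myeloid markers were higher. Their part in the member differences was not tested.

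In DN1 the natural cells carried the whole set and the induced cells chiefly Gzma. Gzmb was 863, 903 and 903 FPKM in natural against 0, 0, 1.66 and 1.67 in induced libraries, a difference of -9.09 ± 0.42 (adjusted p = 5.04e-26). Ccl5, at 2389, 2294 and 2053 against 115, 85.1, 109 and 39.3, differed by -4.78 ± 0.48 (7.28e-12). Fasl, at 81.7, 77.7 and 70.9 against 3.69, 2.95, 2.02 and 1.88, differed by -4.45 ± 0.34 (2.78e-16). These 3 differences were the largest of the 7. Prf1 (-2.10 ± 0.39, adjusted p = 3.32e-05), Nkg7 (-1.97 ± 0.60, 0.0141) and Ctsw (-1.51 ± 0.42, 0.00684) were lower too. Gzma alone had a higher mean in induced cells, 1724, 1610, 1687 and 2010 against 1151, 1255 and 907, and was not called (0.68 ± 0.41, adjusted p = 0.288), although the ranges do not overlap. A fit of these 7 libraries alone did call it (0.0291). In all, 6 of 7 members were lower, where 8.93% of all genes were and 9.9% were higher, all 7 had ranges that do not overlap (28.3% of all genes had such ranges, and 18.8% were called in either direction), and the median member difference was -2.10 beside 0.00 over all genes.

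The NK marker list moved with this comparison, since all 10 tested markers were lower in induced DN1 cells, where they summed to 40.9 to 287 FPKM with none at 0 in every library. Of the plasmacytoid dendritic markers 5 of 8 were lower, among them Siglech (79.4 against 0.0326 FPKM in induced cells). Yet this list summed higher in induced libraries, to 414 to 639 against 311 to 364 FPKM. Lower too were 3 of 6 CD4 T markers and 3 of 9 neutrophil and myeloid markers. The latter list summed to 22.0 to 53.6 FPKM in induced and 2175 to 2907 in natural libraries. In natural DN1, 3 of these 9 markers reached a mean of 1 FPKM. Elane, S100a8, S100a9 and Prtn3 are listed at 0 there in every library. Of the double positive markers 4 of 8 were higher. The Igkc-rich natural libraries were also left out. Replicate 3 is then the only natural DN1 library, and its spread is assumed to be like that of the other groups. In that fit 4 of the 7 members were called lower, and Nkg7 (adjusted p = 0.269) and Ctsw (0.195) were not called. Nkg7 also missed the threshold without natural replicate 1 (0.0532), and at a pseudocount of 0.1 FPKM Prf1 (0.0722), Nkg7 (0.152) and Ctsw (0.118) were not called. The part of these cell types in the member differences was not tested.

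Other genes of some, but not all, of the pathway lists fell with the members in induced DN1 cells. All 3 other granzymes that could be tested were lower, with Gzmc, a granzyme of activated killer cells, at 0 to 1.76 FPKM in induced and 14.4 to 44.6 in natural libraries (-4.37 ± 0.48, adjusted p = 1.03e-10). Of 11 chemokine, receptor and cytokine genes 8 were lower, among them Ifng, interferon gamma (-3.42 ± 0.63, 3.38e-05), and Il2rb, the shared receptor chain for interleukin 2 and its relatives (-2.57 ± 0.28, 9.41e-11). Of 4 genes in the list named granzyme inhibitors 3 were lower, with Serpinb9 at -2.80 ± 0.50 (1.54e-05). Of 10 factors of effector genes 4 were lower, including the T-box factors Tbx21 (-2.71 ± 0.27, 6.91e-12) and Eomes (-1.98 ± 0.23, 3.41e-10), and Id3 was higher (1.99 ± 0.39, 9.1e-05). Of 12 granule packing and release genes 1 was higher, the lysosomal membrane gene Lamp2, and 1 was lower, the protease gene Ctsd.

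From DN2 to DP the only member called between the sources was Ccl5, in DN4. By limma no member was called in DN2, DN3 or DP, where 1.5%, 3.54% and 10.4% of all genes were called (0.879%, 2.35% and 4.83% higher and 0.626%, 1.19% and 5.53% lower). At an unadjusted p under 0.05 the counts were 1 (Gzma), 2 (Gzma and Ctsw) and 1 (Prf1) of 7, beside 10.5%, 16.2% and 22% of all genes. The library ranges of 2, 3 and 0 members did not overlap, beside 24.6%, 25.8% and 10.5% of all genes. Gzma in DN3 was 703, 679 and 610.5 FPKM in induced against 2315 and 1562 in natural libraries, which do not overlap, but the difference of -1.52 ± 0.49 missed the threshold (adjusted p = 0.0708). A limma fit with a block for replicate number did call it (0.0112). In DN2 it was 410.3 and 423 against 1027, 763 and 1665 (-1.39 ± 0.49, adjusted p = 0.18). Nkg7 in DN3 was 147, 170.0 and 200.2 against 79.8 and 84.4 (1.05 ± 0.72, 0.547). Ccl5 in DN4 was at 0.446, 0, 0 and 0 in induced against 5.09, 5.30 and 1.69 in natural libraries (-2.10 ± 0.48, adjusted p = 0.0145). This was 1 of 7 members lower, beside 0.35% of all genes (0.741% in either direction), and the call was lost without natural DN4 replicate 1 (0.14) or 2 (0.152) and with only these 7 libraries in the fit (0.0612).

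At the CD4 SP stage the granzymes parted again. Gzma, low in natural CD4 SP cells at 4.22, 0.905 and 16.3 FPKM, was 323, 269.8, 401 and 261 in induced CD4 SP cells, a difference of 5.80 ± 0.41 (adjusted p = 2.95e-17). Gzmb went the other way, from 39.5, 47.1 and 119 in natural libraries to a listing of 0 in all 4 induced libraries (adjusted p = 2.59e-17). Ccl5 (natural 148, 47.2 and 41.7) and Fasl (natural 4.27, 19.2 and 9.61) are also listed at 0 in all 4 induced libraries (2.2e-15 and 7.39e-12). Nkg7 was 4.64, 5.21, 1.92 and 14.8 against 148, 121 and 154 (-4.48 ± 0.60, adjusted p = 2.73e-08), and Ctsw 14.7, 29.8, 18.6 and 23.0 against 83.6, 141 and 173 (-2.55 ± 0.42, 2.86e-06). Prf1 was below 1 FPKM in every library of both groups (0.20 ± 0.39, 0.86). Thus 1 of 7 members was higher and 5 were lower, where 14% and 12.4% of all genes were, and 6 of 7 had ranges that do not overlap, where 24.6% of all genes had and 26.4% were called. All 6 calls were kept in each of the 13 alternatives.

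The level of Cd4 was 74.1 ± 2.58 FPKM in induced CD4 SP cells (SD, n = 4), and natural ones had 63.4 ± 2.08 (SD, n = 3), but 5 of the 6 CD4 T markers were lower in induced cells, and the list summed to 517 to 647 against 1536 to 1728 FPKM. They also held more of the double positive marker list, which summed to 1779 to 2111 FPKM against 133 to 159, with 7 of 8 markers higher, including the recombinase gene Rag1 (4.07 ± 0.29, adjusted p = 4.03e-17) and Cd8a (3.19 ± 0.33, 1.05e-11). The NK list summed to 0 to 0.0874 FPKM in induced and 41.6 to 73.1 in natural CD4 SP libraries, with 5 of 10 tested markers lower and Ncr1 listed at 0 in both groups. The plasmacytoid dendritic list summed to 207 to 237 FPKM in induced and 159 to 327 in natural libraries. Of this list Siglech (natural 0.305 to 79.7) and Klk1 (natural 0 to 23.2) are listed at 0 in every induced library. Cox6a2 is listed at 0 in every natural one. The part of these in the member differences was not tested. The gene lists around the members also moved. Il2rb was lower (-3.71 ± 0.28, adjusted p = 3.15e-16), as was Srgn, the proteoglycan that packs granzymes (-1.87 ± 0.18, 3.05e-12), and Id2, a regulator of effector and innate lymphocytes (-2.97 ± 0.36, 2.26e-09). Of the lists, 1 of 3 other granzymes, 4 of 12 packing and release genes, 2 of 4 inhibitors, 2 of 7 death receptor genes, 4 of 11 chemokine and cytokine genes and 5 of 10 factors were lower, with 0, 2, 0, 1, 0 and 1 higher.

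In CD8 SP cells Gzma was the 1 member not called. It was 956, 895, 742 and 793 FPKM in induced and 846, 909 and 645 in natural libraries, which overlap (0.09 ± 0.41, adjusted p = 1; quantile normalization turned the sign, at -0.05). The other 6 members were lower. Ccl5 was 0, 0, 0 and 0.647 against 123, 172 and 237 (-7.25 ± 0.48, adjusted p = 9.03e-19), Nkg7 5.54, 12.6, 10.1 and 12.9 against 200.0, 162 and 210.3 (-4.14 ± 0.60, 4.03e-07), and Ctsw 3.75, 12.3, 9.16 and 13.0 against 71.9, 75.7 and 62.2 (-2.86 ± 0.42, 5.86e-07). Gzmb (natural 18.3, 10.1 and 12.6), Fasl (natural 11.8, 2.64 and 2.99) and Prf1 (natural 0.729, 1.49 and 5.49) are listed at 0 in all 4 induced libraries, with adjusted p of 1.29e-10, 6.87e-08 and 0.00271. The count of 6 of 7 lower stands beside 5.01% of all genes (5.63% were higher), and 6 of 7 had ranges that do not overlap, beside 22.3% of all genes (10.6% were called). The call of Prf1 was lost without natural CD8 SP replicate 3 (0.112) and with only these 7 libraries in the fit (0.103).

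Cd8a was 309.8 ± 23.4 FPKM in induced (SD, n = 4) and 354 ± 31.6 in natural CD8 SP cells (SD, n = 3), while 3 of 8 CD8 T markers were lower in induced cells and the list summed to 2278 to 2911 against 2922 to 3457 FPKM. The NK list summed to 0.148 to 8.27 and 116 to 131 FPKM, with 6 of 10 tested markers lower and 6 listed at 0 in every induced library, Klrb1c, Klre1, Klra8, Klra4, Klri2 and Eomes. The part of these lists in the member differences was not tested. Of the pathway lists, 5 of 11 chemokine and cytokine genes were lower, among them Il2rb (-3.10 ± 0.28, adjusted p = 2.05e-13) and Ifng (-2.29 ± 0.63, 0.0102). Of 10 factors 5 were lower, Id2 at -3.58 ± 0.36 (1.23e-11), Runx3, a factor of the CD8 lineage, at -1.30 ± 0.26 (0.000263), Eomes, Klf2 and Stat4.

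**Figure D2:**
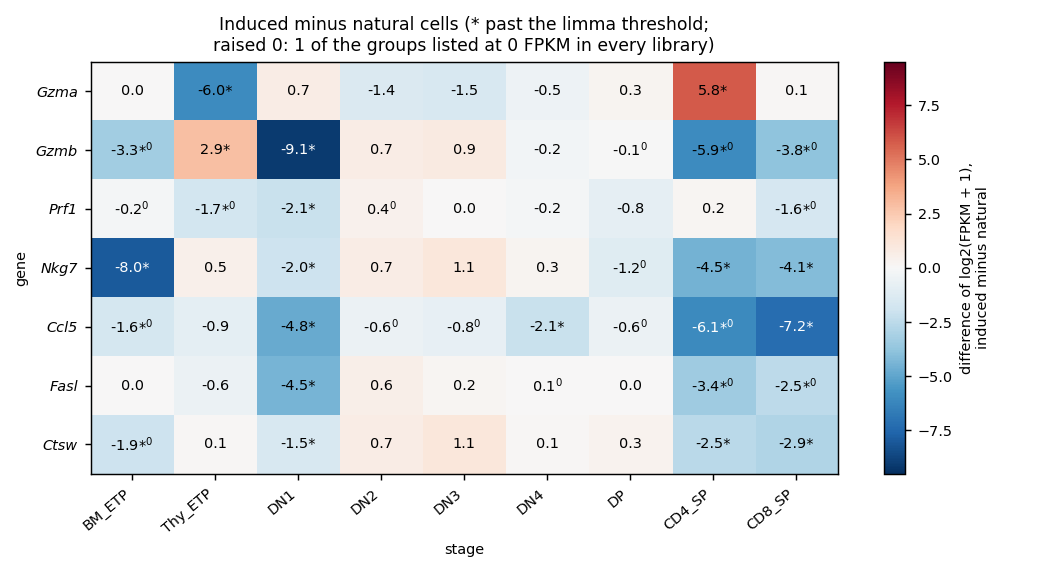
Difference of log2(FPKM + 1), induced minus natural, for each gene (rows) at each stage (columns); a star marks an adjusted p under the threshold and a raised 0 marks a pair in which 1 group is listed at 0 in every library, where the size depends on the pseudocount. Negative values fill the DN1, CD4 SP and CD8 SP columns except for Gzma and, in CD4 SP, Prf1.

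The single positive stages were also compared with each other within a source. In natural cells Gzma set CD8 SP (846, 909 and 645 FPKM) apart from CD4 SP (4.22, 0.905 and 16.3) by 7.16 ± 0.44 (adjusted p = 3.16e-20), Prf1 was higher in CD8 SP (1.40 ± 0.42, 0.00952), and Gzmb was lower in CD8 SP (-2.11 ± 0.45, 0.000242). The count was 2 of 7 higher and 1 lower, beside 10.3% and 12.4% of all genes (22.7% in either direction). The double positive markers were 7 of 8 higher in CD8 SP, with sums of 1619 to 1866 against 133 to 159 FPKM, and DP cells themselves had Gzma at 161 to 239.8. All 6 CD4 T markers were lower, and of 10 NK markers 4 were higher and 3 lower. Their part in the member differences was not tested. Gzmb was not called at a pseudocount of 0.1 FPKM (0.112) or with only these 6 libraries in the fit (0.1), and Prf1 not in that fit (0.274) or without CD8 SP replicate 3 (0.187). Ccl5, at 123, 172 and 237 against 148, 47.2 and 41.7, just missed (1.35 ± 0.52, adjusted p = 0.0508). It was called under equal totals (0.0241), under quantile normalization (0.0394) and without natural CD4 SP replicate 1 (0.00816) or CD8 SP replicate 1 (0.0443), with adjusted p up to 0.44 in the other alternatives. Fasl (-0.87 ± 0.37, 0.0801) was called without the same libraries (0.0066 and 0.00292).

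In induced cells Gzma was the only member called between these stages, 956, 895, 742 and 793 in CD8 SP against 323, 269.8, 401 and 261 in CD4 SP (1.44 ± 0.38, adjusted p = 0.00883; 1 of 7 higher beside 2.87% of all genes and 0 lower beside 4.67%, or 7.53% in either direction). Ctsw was 3.75, 12.3, 9.16 and 13.0 against 14.7, 29.8, 18.6 and 23.0 and missed (-1.17 ± 0.39, 0.0563), but was called under equal totals (0.0273) and without induced CD4 SP replicate 1 (0.0499) or induced CD8 SP replicate 4 (0.0443). The gap of Gzma between CD8 SP and CD4 SP was smaller in induced than in natural cells by the test of the difference itself (-5.71 ± 0.58, adjusted p = 2.23e-11). By that test 1 of 7 members was higher and 2 were lower, beside 3.81% and 4.25% of all genes (8.06% in either direction).

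From DN1 to DN2, 6 of the 7 members fell in natural cells and Gzma was not called. Ccl5 went from 2389, 2294 and 2053 FPKM in DN1 to 2.42, 0 and 0 in DN2 (-10.54 ± 0.52, adjusted p = 6.78e-25), Gzmb from 863, 903 and 903 to 0.194, 1.22 and 0.683 (-9.08 ± 0.45, 9.18e-25), and Ctsw from 559.8, 574 and 511 to 15.9, 9.51 and 14.9 (-5.28 ± 0.45, 1.13e-14). Fasl (-5.13 ± 0.37, 7.74e-18) and Nkg7 (-2.94 ± 0.65, 0.000274) were lower as well, and Prf1 is listed at 0 in all 3 DN2 libraries (1.68e-13). Gzma was 1151, 1255 and 907 in DN1 and 1027, 763 and 1665 in DN2, ranges that overlap (-0.00 ± 0.44, adjusted p = 1). This was 6 of 7 members lower beside 13.2% of all genes, and the 10 NK markers were lower too, their sum going from 1798 to 2109 in DN1 to 0 to 7.40 in DN2. Plasmacytoid dendritic markers (6 of 8) and CD4 T markers (4 of 6) were also lower. Their part in the member differences was not tested. With natural DN1 replicate 3 alone on the DN1 side, the count was 6 of 7.

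In induced cells the same step lowered Gzma, from 1724, 1610, 1687 and 2010 to 410.3 and 423 FPKM (-2.07 ± 0.47, adjusted p = 0.00114). Ctsw, at 225, 139, 212 and 203 in induced DN1, was 14.1 and 35.8 in induced DN2 (-3.03 ± 0.48, 3.27e-06). Ccl5, at 39.3 to 115 in induced DN1, is listed at 0 in both induced DN2 libraries (1.09e-13), and Prf1 was 0.844 and 0 in induced DN2 against 3.51 to 4.68 in induced DN1 (-1.95 ± 0.44, 0.00121), a call lost without induced DN2 replicate 2 (0.133). Nkg7 was 324 to 480.3 in induced DN1 and 333 and 328 in induced DN2, which overlap (-0.24 ± 0.68, adjusted p = 1). Of the markers, 8 of 10 NK genes, 5 of 9 innate lymphoid and gamma delta T genes and 5 of 8 CD8 T genes were lower, and the NK sum went from 40.9 to 287 FPKM in induced DN1 to 0 to 3.09 in induced DN2. Whether these lists bear on the member differences was not tested. The count of 4 of 7 lower and 0 higher stands beside 5.27% and 4.17% of all genes (9.43% in either direction). The step itself differed between the sources for 6 of 7 members, 5 higher and 1 lower in induced minus natural cells, beside 3.48% and 2.8% of all genes (6.28% in either direction). Higher here means that induced cells had a smaller fall or none called. Induced DN1 cells already had Gzmb at 0 to 1.67 and Fasl at 1.88 to 3.69 FPKM, which left little room to fall. The calls of Gzmb and Fasl alone were kept in every alternative.

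**Figure D3:**
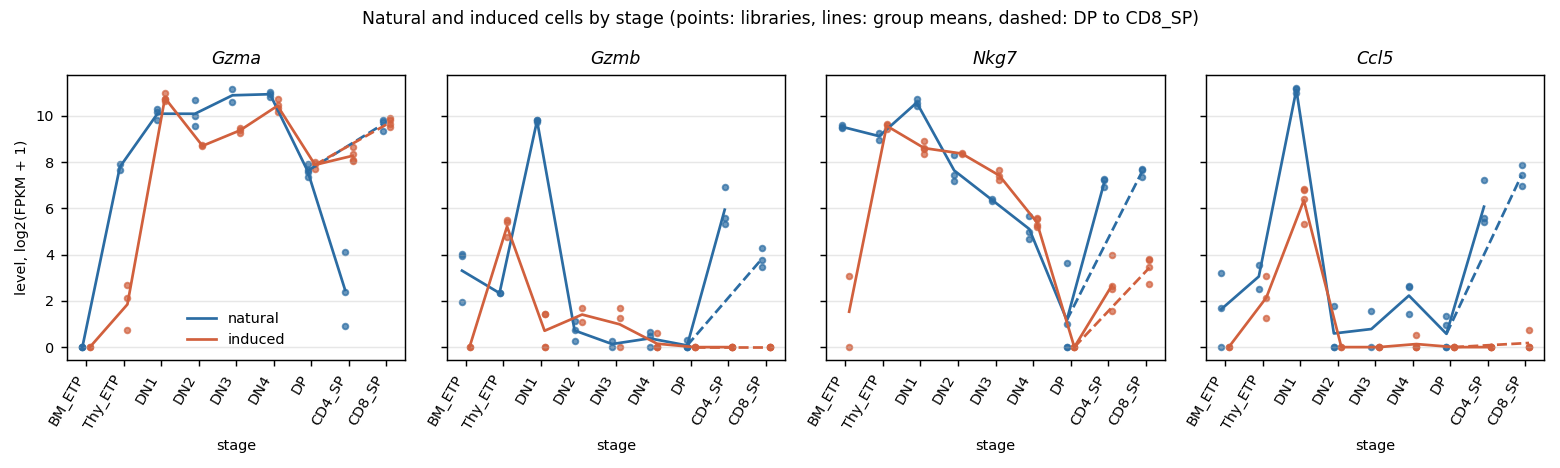
Levels of Gzma, Gzmb, Nkg7 and Ccl5, log2(FPKM + 1), by stage in natural (blue) and induced (orange) cells; points are libraries, solid lines join group means and dashed lines join DP to CD8 SP. Gzma stays high through the DN stages in both sources and parts at Thy ETP and CD4 SP, whereas Gzmb and Ccl5 peak in natural DN1, are low from DN2 to DP and are higher again at the natural SP stages. Induced DN1 cells hold Ccl5 at 39.3 to 115 FPKM.

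Between natural early progenitors of the thymus and the marrow, Gzma was listed at 0 in the 3 marrow libraries and at 241 and 203 FPKM in the thymic ones (adjusted p = 4.91e-20). Ctsw was higher in the thymus, 22.5 and 43.9 against 0.482, 6.45 and 4.16 (3.08 ± 0.51, adjusted p = 3.42e-06), and Prf1 was higher at low level, 4.10 and 1.17 against 0, 0.591 and 0 (1.51 ± 0.47, 0.0176). This gives 3 of 7 higher beside 5.85% of all genes. All 9 neutrophil and myeloid markers were lower in the thymus, with sums of 74.9 to 81.4 against 29716 to 43318 FPKM, and 4 of 8 double positive markers were higher. The part of these markers in the member differences was not tested. With only these 5 libraries Ctsw (0.153) and Prf1 (0.189) were not called, and Prf1 was lost without BM ETP replicate 1 (0.0661) or 3 (0.0641) or Thy ETP replicate 1 (0.475). Gzmb was called without BM ETP replicate 2 (0.0197), Ccl5 without BM ETP replicate 1 (0.0058) and Fasl without Thy ETP replicate 2 (0.0432).

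Mature T and B cells of the marrow were compared next, as T cells are a known source of these genes and B cells are not. All 7 members were higher in mature T than in mature B cells, beside 11.8% of all genes. The NK list summed to 278 to 356 FPKM in mature T and 0.212 to 4.07 in mature B libraries, and the CD8 T list to 2927 to 3039 and 16.4 to 45.4. The B cell list went the other way, with 14.1 to 37.0 and 47994 to 83347. Whether these lists bear on the member differences was not tested. Prf1 was 10.7, 20.3 and 10.5 FPKM against 0.0969 to 0.666 (3.49 ± 0.39, adjusted p = 6.05e-11) and Ctsw 280.5, 231 and 279 against 0, 0, 0 and 0.611 (7.87 ± 0.42, 1.79e-23). The other 5 are listed at 0 in all 4 mature B libraries, with adjusted p from 1.23e-25 (Ccl5) to 0.000244 (Gzmb), and Gzmb, at 0, 4.90 and 8.43 in mature T cells, overlaps B cells and was not called with only these 7 libraries in the fit (0.251).

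Compared with natural CD8 SP thymocytes, mature T cells had more of 5 members and less of both granzymes. Gzma was 7.15, 30.3 and 105 FPKM against 846, 909 and 645 (-4.72 ± 0.44, adjusted p = 2.18e-13) and Gzmb 0, 4.90 and 8.43 against 18.3, 10.1 and 12.6 (-1.90 ± 0.45, 0.000638). Ccl5 (2.56 ± 0.52, 7.23e-05), Prf1 (2.23 ± 0.42, 1.97e-05), Ctsw (1.90 ± 0.45, 0.000765), Nkg7 (1.86 ± 0.65, 0.0228) and Fasl (1.83 ± 0.37, 6.23e-05) were higher. The counts of 5 higher and 2 lower stand beside 15.9% and 12.6% of all genes, and none of the 7 overlaps, where 33.3% of all genes do not (28.5% were called). Of the marker lists, 5 of 10 NK markers (sums of 278 to 356 in mature T and 116 to 131 in CD8 SP libraries) and 5 of 6 CD4 T markers were higher, and 5 of 8 double positive and 6 of 8 plasmacytoid dendritic markers were lower. Whether these lists bear on the member differences was not tested. With only these 6 libraries in the fit 3 of the 7 were called, Gzma (0.0534), Gzmb (0.307), Prf1 (0.0907) and Fasl (0.135) not being among them. Gzmb was also lost without mature T replicate 1 (0.0967), and Nkg7 without mature T replicate 3 (0.0651) or CD8 SP replicate 2 (0.073). Nkg7 was not called under equal totals (0.0966), quantile normalization (0.059) or a pseudocount of 0.1 FPKM (0.173), and under that pseudocount neither was Ccl5 (0.0762).

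The members were also set beside the NK marker list across libraries. The 3 natural DN1 libraries, with the highest NK sums, had the highest Ccl5, and induced CD4 SP libraries, with sums of 0 to 0.0874 FPKM, are listed at 0 for Ccl5. Between these ends Ccl5 did not follow the sum closely. Induced DN1 replicate 3, with a sum of 287, had Ccl5 at 109 FPKM, and mature T replicate 1, with 278, had 717. Natural CD8 SP libraries, with sums of 116 to 131, had 123 to 237. Gzma did not run with this list, since induced CD4 SP libraries had 261 to 401 and induced DN3 libraries, in which all 10 NK markers are listed at 0, had 610.5 to 703. Mature T libraries had NK sums of 278 to 356 with Gzma between 7.15 and 105.

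**Figure D4:**
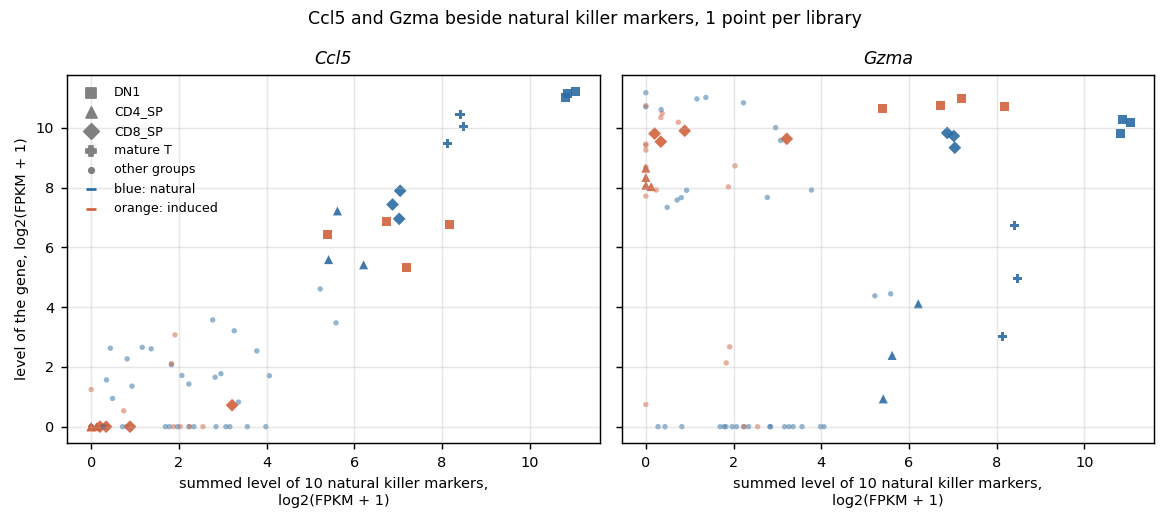
Level of Ccl5 (left) and Gzma (right), log2(FPKM + 1), against the summed level of 10 NK markers on the same scale, 1 point per library; shapes mark DN1, CD4 SP, CD8 SP and mature T groups. Libraries whose NK sum was 0 had Ccl5 of 1.37 FPKM or less, while their Gzma reached 2315 FPKM in natural DN3 replicate 1. Where NK sums were 2.76 FPKM or less, Ccl5 reached 7.41 FPKM, in induced Thy ETP replicate 3.

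Over the 24 group means of 11086 genes that reached a mean of 5 FPKM in some group, the genes most like each member were found by Pearson correlation on the log2 scale, as a description. Those most like Gzma were Snai3 (0.909), Sh2d1a (0.880), an adaptor of lymphocyte receptors, and Cd3d (0.869), none of them a granule gene. Those most like Ccl5 were the NK receptor genes Klrd1 (0.970) and Klra7 (0.946) and Il2rb (0.940). Prf1 was most like Eomes (0.956), Klrc1 (0.928) and Klre1 (0.921), and Fasl most like Klrc1 (0.936), Samd3 (0.936) and Klra7 (0.927). Gzmb was most like Klra9 (0.852), the plasmacytoid dendritic cell receptor gene Siglech (0.852) and Klk1 (0.829). Nkg7 was most like Cst7 (0.912), the inhibitor of cysteine proteases cystatin F, with Pitpnc1 (0.845) and Rexo2 (0.829), and Ctsw was most like Ms4a4b (0.878), Cd160 (0.872) and Cd7 (0.859). By Spearman's coefficient 1 of the 3 stayed for Gzma, Prf1 and Ctsw, 2 for Nkg7 and 0 for Gzmb, Ccl5 and Fasl. At a pseudocount of 0.1 FPKM 0 of the 3 stayed for Gzmb and Ctsw, 2 for Ccl5 and all 3 for the other 4 members, so the names depend on the measure and the pseudocount.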

How the data were processed

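RNA of 76 labelled libraries was measured by sequencing polyA RNA amplified to cDNA, with Nextera XT libraries per the labels' protocols. The deposited values are FPKM per Ensembl gene and library, and the submitters' processing notes name bcl2fastq, TopHat, Cufflinks 2.2.1, Cuffnorm and the build NCBIM37. The annotation, strand setting and normalization of Cuffnorm are not given in the sources used here. Depth is unknown because read counts were not used here. Pro/pre-B replicate 3 equals replicate 1 and was left out, which left 75. Symbols came from GENCODE vM21 (32935 of 37980 IDs, 86.7%); Cd244 and Trdc had no match.

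Values were transformed as log2(FPKM + 1), filtered at 1 FPKM in 2 libraries, and fitted with limma 3.58.1 (R 4.3.3; 1 mean per group, 51 residual degrees of freedom, trend and robust settings). The 18 comparisons were two-sided, adjusted by Benjamini-Hochberg over 17416 genes with a threshold of 0.05. Other steps used Python 3.11.15 (pandas 2.3.3, numpy 2.4.6). The fit was tested on simulated data for the comparison of induced with natural DN1 only, with noise drawn independently for each value. Changes were planted only in genes of higher mean level and were smaller than the largest member differences. That test therefore does not cover genes near 0 FPKM, and no result here rests on it. The named genes were the 7 members, genes of the pathway and marker lists, and the 3 genes most like each member. Alternatives were a pseudocount of 0.1, no filter, equal totals, quantile normalization, a replicate block, only the groups compared, and each library left out. Members and lists were chosen with earlier results of these data known. Leaving out natural DN1 replicates 1 and 2 was chosen after seeing the data.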

Additional observations from a re-analysis of the deposited data

Results flagged for a closer look

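Single libraries stood apart in natural DP cells. Prf1 was 7.58 FPKM in DP replicate 3 against 0, 0 and 0.264 in the others, and Nkg7 was 11.6 FPKM in DP replicate 1 against 0, 1.03 and 0. Dixon's test was applied to 27 combinations of a member and a group of 4 libraries and flagged these 2, where chance marks about 5% of such combinations. Several values in these 2 sets are listed at 0, so that share is only a rough guide, and the flags may be due to chance.

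The gap between CD8 SP and CD4 SP cells differed between induced and natural cells for 3 members by the interaction test in limma. The difference of the gaps was -5.71 for Gzma (SE 0.58, adjusted p = 2.23e-11), 2.11 for Gzmb (SE 0.59, 0.0157) and -1.81 for Prf1 (SE 0.55, 0.0284). The Gzmb gap rests on natural cells, since all 8 induced SP libraries are listed at 0, and Prf1 is listed at 0 in every induced CD8 SP library, so both sizes depend on the pseudocount. Gzmb was not called at a pseudocount of 0.1 FPKM (0.392) or without natural CD4 SP replicate 3 (0.0895) or CD8 SP replicate 2 (0.0555). Prf1 was not called with only these groups in the fit (0.084) or without natural CD8 SP replicate 3 (0.193), natural CD4 SP replicate 2 (0.0709) or 3 (0.0596), or induced CD4 SP replicate 2 (0.0629). Fasl was called without natural CD8 SP replicate 1 (0.0476).

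The step from DN1 to DN2 differed between the sources for 6 of 7 members, 5 above and 1 below, beside 3.48% and 2.8% of all genes. The difference of steps, induced minus natural, was above 0 in Gzmb, at 9.78 (SE 0.65, adjusted p = 2.21e-18), in Fasl with 5.01 (SE 0.53, 1.03e-10), in Ccl5 with 4.19 (SE 0.75, 5.15e-05), in Prf1 with 2.54 (SE 0.61, 0.00338) and in Ctsw with 2.24 (SE 0.66, 0.0255). Ccl5 is listed at 0 in both induced DN2 libraries and Prf1 in all 3 natural DN2 libraries, so the sizes of these differences depend on the pseudocount. Gzmb and Fasl were already low in induced DN1 cells, at 0 to 1.67 and 1.88 to 3.69 FPKM, so their differences largely restate the DN1 gap between the sources. Gzma went the other way with -2.07 (SE 0.64, 0.0376). At a pseudocount of 0.1 FPKM the differences of Gzmb and Fasl alone were called, with adjusted p of 0.326 for Ccl5, 0.106 for Prf1, 0.262 for Ctsw and 0.111 for Gzma. Prf1 was also lost without induced DN2 replicate 1 (0.0807). Ctsw was lost without induced DN1 replicate 2 (0.0559), induced DN2 replicate 2 (0.339), natural DN1 replicate 2 (0.0509), natural DN2 replicate 2 (0.0776) or natural DN1 replicates 1 and 2 together (0.16). Gzma was lost with no filter (0.0503) and without induced DN1 replicate 4 (0.0631), induced DN2 replicate 1 (0.136) or 2 (0.118), natural DN1 replicate 1 (0.0542) or 3 (0.0882), natural DN2 replicate 1 (0.0507) or 3 (0.136), or natural DN1 replicates 1 and 2 together (0.0856). The call of Nkg7 (2.70, SE 0.94, adjusted p = 0.0773) was gained with only these groups in the fit (0.00496).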

How the results depend on the processing

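The following totals cover members that were called in a comparison or had a mean of at least 5 FPKM in a group compared. Of their values recomputed under alternatives, 1184 kept their direction and side of the threshold, 72 fell below it, 15 rose past it and 14 changed sign. Where no construction shows it, the cause was not tested. With only the groups compared in the fit, and so fewer libraries to estimate the spread, the members called were 1 for BM ETP (4 in all libraries), 0 for Thy ETP (3), 0 for DN4 (1), 1 for natural CD8 SP against CD4 SP (3), 1 for natural Thy ETP against BM ETP (3) and 3 for mature T against CD8 SP (7). All genes called then went from 1441 to 16 for Thy ETP, 262 to 50 for DN2, 616 to 0 for DN3, 129 to 374 for DN4, 1804 to 115 for DP, 4599 to 2132 for CD4 SP, 3948 to 1360 for natural CD8 SP against CD4 SP, 4598 to 2937 for natural DN2 against DN1, 4167 to 1732 for mature T against B and 4965 to 2610 for mature T against CD8 SP. A pseudocount of 0.1 FPKM left 3 members for DN1 (6) and 2 for the difference between sources of the step from DN1 to DN2 (6), and equal totals gave 2 for induced CD8 SP against CD4 SP (1). Same-numbered natural and induced libraries of a stage did not deviate together (23 pairs, r from -0.04 to 0.054). Same-numbered libraries of different stages within a source were not compared, so pairing among those was not tested. The replicate block was fitted only to comparisons without mature cells. With it 1 member was called for DN3 (Gzma, adjusted p = 0.0112, and 0 without), and no other member call changed among these comparisons. With each library left out, the members called ran from 0 to 1 for DN4, 2 to 5 for natural and 1 to 2 for induced CD8 SP against CD4 SP, and 1 to 4 for the difference of those gaps. All genes called were 882 and 771 for Thy ETP without natural replicate 1 or 2, 133 and 130 for DN2 and 918 and 940 for induced DN2 against DN1 (1643) without induced DN2 replicate 1 or 2, 394 and 315 for DN3 without induced replicate 1 or 3, 77 for DN4 without natural replicate 1, and 1680 for natural Thy ETP against BM ETP (2523) without Thy ETP replicate 1. Without natural DN1 replicates 1 and 2, which leaves 1 library in that group, all genes called were 1487 for DN1 (3280) and 2817 for natural DN2 against DN1. Signs changed in uncalled values. Gzma was -0.05 for CD8 SP and 0.03 for natural DN2 against DN1 under quantile normalization, and 0.27 for the latter without natural DN1 replicates 1 and 2. Nkg7 was -0.00 for the difference of the CD8 SP to CD4 SP gaps under equal totals. With a library left out, Ctsw ran from -0.36 to 0.58 for Thy ETP (-0.17 the other negative value) and from -0.12 to 0.37 for DN4, and Gzma ran from -0.06 to 0.19 for CD8 SP and from -0.30 to 0.26 for natural DN2 against DN1. The difference of the CD8 SP to CD4 SP gaps ran from -0.03 to 0.78 for Nkg7 and from -0.53 to 0.04 for Ctsw. Levels below about 1 FPKM are limited by unknown depth.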
